A study of Mus musculus with 26 samples.

Results

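The genes described here encode collagens and other extracellular matrix proteins of the mouse lung, 49 genes chosen by symbol from matrix families. The choice did not use their measured values as a rule, but earlier results of these data were known when it was made. A probe was found for 48 of them through its RefSeq accession, and all 48 passed the filter on dim probes. Col12a1 was not matched and is not analysed here. The 49 genes fall into 5 fibrillar collagens, 5 fibril-associated and type VI collagens, 12 basement membrane genes, 10 elastic fibre genes, 3 cross-linking enzymes, 6 proteoglycans and 8 adhesive or matricellular glycoproteins. The tested set of the whole array held 22950 features, a feature being a gene, or an accession without a symbol, read by 1 probe.

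Whole lung RNA came from 25 MutaMouse mice of about 12 weeks, in 5 groups of 5. MutaMouse animals carry a transgenic reporter used to count mutations, and every group, the control included, has this genotype. The exposed mice had multiwalled carbon nanotubes, in a suspension made with mouse serum, instilled into the trachea in 4 weekly doses, and lungs were taken 56 days after the last one. Each of 2 materials was given at a low and a high dose, which makes the groups NM-401 low and high and Mitsui low and high. Mitsui is Mitsui XNRi-7, the low dose is 42.7 µg per mouse and the high dose 128 µg per mouse. Whether a dose is per instillation or a total is not stated. The labels differ over sex, female on the samples and male in the design text. They also differ over the control, which is called a vehicle control in the design text and described as gavage with olive oil in the treatment protocol, so what the control animals received is not settled. RNA was taken from random lung sections, so each sample mixes all cell types of the tissue, and fewer cells of a type cannot be told apart from less RNA per cell.

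Fibrillar collagens form the cross-banded fibres that give lung tissue tensile strength, and types I and III are the main ones in scar tissue. The basement membrane is a thin sheet of type IV collagen and laminin networks, joined by nidogen and perlecan, that lies under the epithelium and around capillaries. Elastic fibres have a core of elastin laid on a scaffold of fibrillin microfibrils and let the alveoli recoil. Proteoglycans such as decorin and biglycan coat the fibrils and set their thickness, and matricellular proteins bind the matrix and alter how cells attach to it.

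Each value below is a log2 ratio of the lung RNA of an animal (Cy5) over a common reference RNA (Cy3) on a 2-colour Agilent array. Levels of different genes are therefore not comparable, and only differences between groups are. Calls rest on limma's moderated test, with an adjusted p under 0.05 after Benjamini-Hochberg correction over all 22950 features, and errors of differences are standard errors from that fit with n = 5 per group. Each animal is 1 replicate. A Mitsui low animal was on 2 arrays, which were averaged first. The share of probes detected above background in the lung channel was 45.8% to 62.1% over the 26 arrays, and the correlation between any 2 animals over all features lay between 0.88 and 0.98. All 11 matched markers of lung identity, surfactant genes among them, were above background in all 25 animals.

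Matrix genes moved in both directions. With NM-401 high 12 of the 48 members rose and 9 fell, where 34.8% of all features were called, 18.4% higher and 16.4% lower. The 12 include Col15a1, which was above background in 2 of 5 controls and passed the filter only through exposed groups; the other 47 measured members were above background in 4 animals or more of every group. With NM-401 low 4 rose and 5 fell (16.9% of all features called, 8.95% higher and 8% lower). With Mitsui low 7 rose and 5 fell (21%, 10.6% higher and 10.4% lower), and with Mitsui high 9 rose and 5 fell (23.7%, 12.7% higher and 11% lower). These 4 comparisons share the control animals. In total 23 members were called in at least 1 exposure, against 40.6% of all features, and 25 in none, against 59.4%. Counting both directions, the share of members called was close to or somewhat above that of all features in each exposure. Values of the exposed animals did not overlap with the controls for 6 members with NM-401 low (11.6% of features), 15 with NM-401 high (22.5%), 7 with Mitsui low (16%) and 8 with Mitsui high (14.6%). The median difference of the 48 members was -0.02, 0.08, 0.02 and 0.02 in the order low and high NM-401, then low and high Mitsui, where that of all features was -0.00 each time.

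Of the 48 members 7 were called in all 4 exposures in 1 direction, a share near that of all features (12%). The 3 that rose were the type III collagen gene Col3a1, the latent TGF-beta binding protein gene Ltbp2 and Mgp, which encodes an inhibitor of calcification. The 4 that fell were the basement membrane genes Nid1 and Hspg2, the proteoglycan gene Ogn and the matricellular gene Sparc. Calls of Col3a1, Ogn and Mgp with NM-401 low, and of Mgp with Mitsui high, were lost when certain single animals were left out. The second brightest probes of Nid1, Hspg2 and Sparc were each not called in some or all exposures.

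Most calls depended on the normalisation within arrays. When each array was centred on its median in place of loess normalisation, the median difference of all features moved to -0.11 with NM-401 low, 0.17 with NM-401 high, -0.14 with Mitsui low and -0.13 with Mitsui high. Of 60 member calls over all comparisons 57 were then lost and 1 turned sign. The calls of Ltbp2 and Col15a1 with NM-401 high were not lost. Col15a1 passed the filter only through exposed groups, so its call is no support here. Under the other array-wide alternatives, from 0 to 5 of the 60 calls were lost, or 7 with no filter on dim probes. The second brightest probe could be read for 21 of the calls, of which 12 were lost and 1 turned sign. Leaving out 1 animal lost from 1 to 10 of the 60.

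**Figure D1:**
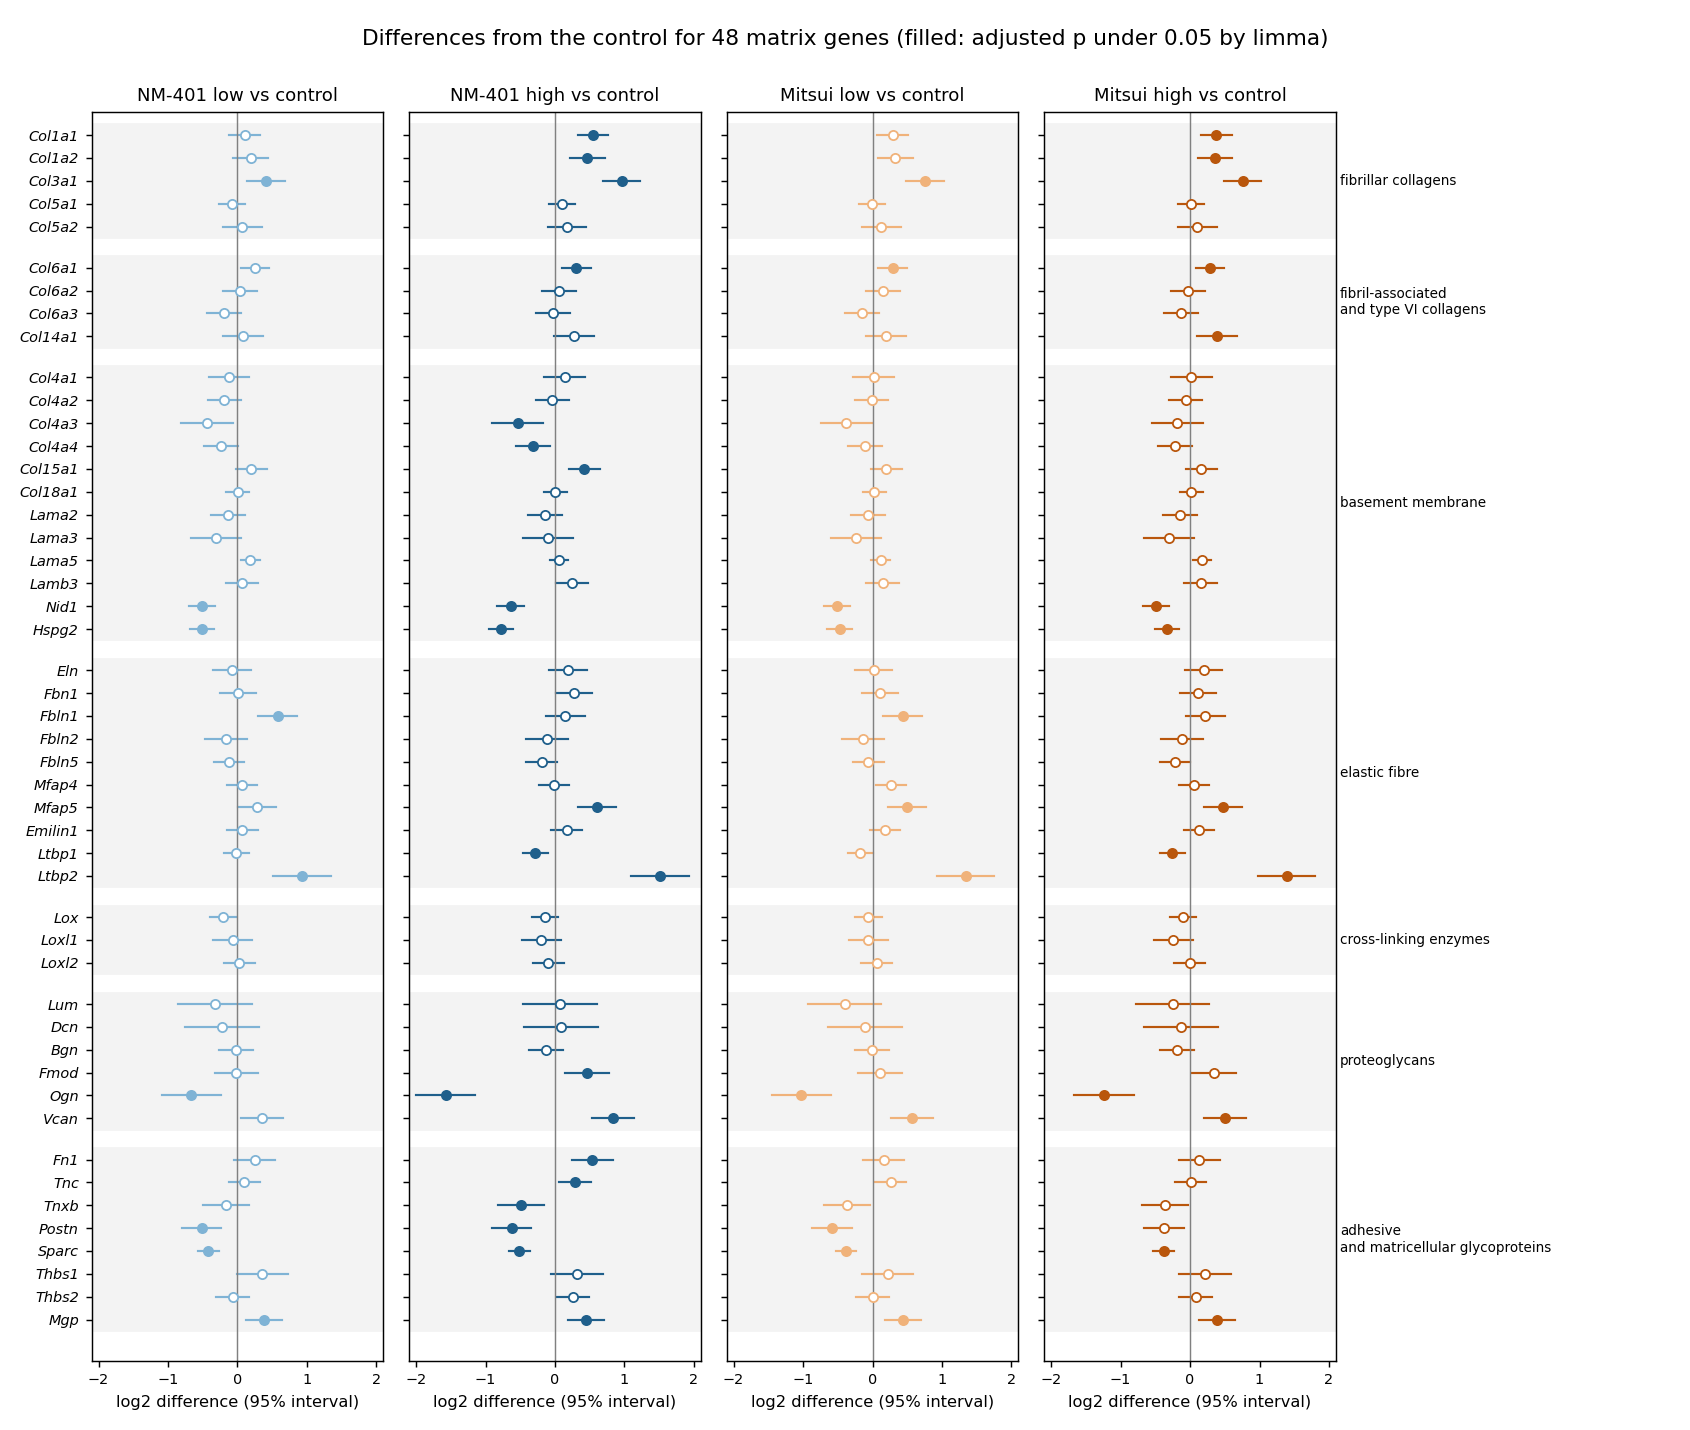
Difference from the control mean for each of the 48 measured matrix genes (rows, grouped by class) in the 4 exposures (panels), on the log2 scale. Points are the fitted differences, lines their 95% intervals, and filled points were called by limma; Col3a1 and Ltbp2 lie right of 0 and Nid1, Hspg2, Ogn and Sparc left of 0 in every panel.

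Among the fibrillar collagens, the type I and type III genes rose, and Col5a1 and Col5a2, the type V genes among the members, did not pass the test. Col5a3, another type V gene, is no member and is given with the other collagen chains. Col1a1 and Col1a2 encode the 2 chains of type I collagen, and Col3a1 the chain of type III, which forms thinner fibres. With NM-401 high all 3 rose, and with Mitsui high too, where 18.4% and 12.7% of all features were called higher. At the low doses only Col3a1 of the 5 was called.

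The log2 ratios of Col3a1 were -0.63, -0.69, -0.69, -0.38 and -0.89 in the controls and 0.20, 0.39, 0.56, 0.09 and 0.29 with NM-401 high. They were -0.08, 0.11, -0.25, -0.63 and -0.37 with NM-401 low, -0.10, 0.33, 0.23, -0.26 and 0.30 with Mitsui low and -0.00, -0.06, 0.13, 0.16 and 0.28 with Mitsui high. Every animal given NM-401 high, Mitsui low or Mitsui high lay above every control, whereas the NM-401 low animals overlapped with them. Col3a1 was higher by 0.96 ± 0.13 with NM-401 high, or 1.94-fold (95% interval 1.61 to 2.34) (limma adjusted p = 3.91e-06). The differences were 0.75 ± 0.13 with Mitsui low, 0.76 ± 0.13 with Mitsui high and 0.41 ± 0.13 with NM-401 low. The last of these was lost without NM-401 low animal 1 or 2 or control animal 2, 3 or 5 (0.32 to 0.40).

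For Col1a1 the controls read -2.18, -2.49, -2.22, -2.07 and -2.46 and the NM-401 high animals -1.94, -1.80, -1.55, -1.74 and -1.65. With Mitsui high the values were -2.01, -1.96, -1.92, -1.80 and -1.84. Both high dose groups lay wholly above the controls. The differences were 0.55 ± 0.11 for NM-401 high, or 1.46-fold (95% interval 1.25 to 1.7) (limma adjusted p = 0.000296), and 0.38 ± 0.11 for Mitsui high (adjusted p = 0.0121). At the low doses the values spread over the control range, -2.16, -1.99, -2.08, -2.32 and -2.35 with NM-401 and -2.19, -1.82, -1.92, -2.32 and -1.71 with Mitsui, and the differences of 0.10 ± 0.11 and 0.29 ± 0.11 were not called.

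Col1a2 read -1.67, -1.60, -1.25, -1.30 and -1.60 in the controls and -0.9984, -1.10, -0.94, -1.04 and -1.01 with NM-401 high, the tightest group of the 5. It was higher by 0.47 ± 0.12, or 1.38-fold (95% interval 1.16 to 1.64) (limma adjusted p = 0.0038), with no overlap. With Mitsui high 3 of 5 animals lay inside the control range (-1.29, -1.38, -0.70, -0.95 and -1.31), and the difference of 0.36 ± 0.12 was lost without Mitsui high animal 3 or 4 or control animal 1, 2 or 5 (0.25 to 0.33). The type V chains Col5a1 and Col5a2, which sit in the core of type I fibrils and limit their width, differed by 0.10 and 0.17 with NM-401 high and by 0.02 and 0.10 with Mitsui high, with 95% intervals that include 0. The median over the 5 fibrillar genes was 0.47 with NM-401 high, 0.36 with Mitsui high, 0.29 with Mitsui low and 0.10 with NM-401 low, the last becoming -0.04 under median centring.

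Sequences before the start site are shown for the pair of fibrillar genes and the pair of basement membrane genes that the text sets against each other, taken from RefSeq (windows of 32 of the 48 measured members were used, and the first one listed for the 8 members with several). Each run is the 250 bases before the annotated start on build GRCm38.p6, all on the plus strand. The windows are chr6:4505368-4505617 for Col1a2, chr1:45311288-45311537 for Col3a1, chr13:13437352-13437601 for Nid1 and chr4:137468553-137468802 for Hspg2. Capitals mark matches on either strand to a TATA box, a CCAAT box, a GC box or an AP-1 site, whose letters are given with their shares after the runs.
Col1a2: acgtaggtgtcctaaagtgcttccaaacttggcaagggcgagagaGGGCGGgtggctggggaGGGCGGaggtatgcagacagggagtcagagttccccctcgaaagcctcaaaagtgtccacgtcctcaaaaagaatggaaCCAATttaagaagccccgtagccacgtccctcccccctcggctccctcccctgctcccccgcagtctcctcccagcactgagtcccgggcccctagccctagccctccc
Col3a1: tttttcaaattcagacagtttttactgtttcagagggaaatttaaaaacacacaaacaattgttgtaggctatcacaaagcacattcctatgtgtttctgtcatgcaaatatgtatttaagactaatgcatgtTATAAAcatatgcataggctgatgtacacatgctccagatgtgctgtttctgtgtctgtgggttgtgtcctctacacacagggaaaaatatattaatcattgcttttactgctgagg
Nid1: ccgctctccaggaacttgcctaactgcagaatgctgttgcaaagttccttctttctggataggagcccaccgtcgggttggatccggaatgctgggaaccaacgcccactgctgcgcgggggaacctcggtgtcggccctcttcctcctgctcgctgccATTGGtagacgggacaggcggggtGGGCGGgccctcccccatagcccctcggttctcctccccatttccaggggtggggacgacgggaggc
Hspg2: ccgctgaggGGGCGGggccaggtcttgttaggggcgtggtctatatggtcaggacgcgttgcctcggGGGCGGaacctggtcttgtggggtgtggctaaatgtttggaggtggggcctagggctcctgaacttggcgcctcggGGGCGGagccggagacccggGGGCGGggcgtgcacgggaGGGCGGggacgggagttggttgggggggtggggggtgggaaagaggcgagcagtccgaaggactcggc
The Hspg2 run holds 5 GC boxes, Nid1 1 with a CCAAT box, Col1a2 2 with a CCAAT box, and Col3a1 a TATA box alone. A GC box, GGGCGG, was found in 46.9% of the 32 members with a window and in 32.7% of all 32851 windows. A CCAAT box was found in 28.1% and 33.8%, and a TATA box, TATAAA, in 12.5% and 12.4%. The AP-1 site, TGANTCA, was found in 6.25% and 6.75%. A match of letters is a description of the sequence and not a binding site.

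The basement membrane genes went the other way or stayed near the control. With NM-401 high 4 of 12 fell, Nid1, Hspg2, Col4a3 and Col4a4, and Col15a1 was called higher. Of all features 16.4% were called lower there and 18.4% higher. In the other exposures Nid1 and Hspg2 alone were called, both lower. The shares of all features called lower were 8% with NM-401 low, 10.4% with Mitsui low and 11% with Mitsui high. Nid1 encodes nidogen, which links the laminin network to type IV collagen. Hspg2 encodes perlecan, the large heparan sulphate proteoglycan of basement membranes.

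Nid1 read -0.31, -0.00, -0.26, -0.11 and -0.31 in the controls and -0.94, -0.72, -0.94, -0.68 and -0.90 with NM-401 high. The values were -0.65, -0.93, -0.62, -0.59 and -0.72 with NM-401 low, -0.73, -0.78, -0.65, -0.77 and -0.60 with Mitsui low and -0.83, -0.50, -0.49, -0.64 and -0.98 with Mitsui high. Each of the 20 exposed animals lay below all 5 controls. Nid1 changed by -0.64 ± 0.09 with NM-401 high, a ratio of 0.642 (95% interval 0.563 to 0.731) (limma adjusted p = 7.39e-06). The other 3 differences were nearly the same, -0.51 ± 0.09, -0.51 ± 0.09 and -0.49 ± 0.09. Its second brightest probe changed less, by -0.28 ± 0.10 with NM-401 high (adjusted p = 0.0245 by limma), and was not called in the other exposures (-0.16 ± 0.10, -0.23 ± 0.10 and -0.23 ± 0.10). The third kept probe read -0.35, -0.43, -0.31 and -0.34 with low and high NM-401 and then low and high Mitsui.

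Hspg2 read 0.12, 0.11, 0.09, 0.37 and 0.11 in the controls and -0.58, -0.45, -0.85, -0.55 and -0.64 with NM-401 high. It read -0.30, -0.26, -0.47, -0.28 and -0.44 with NM-401 low, -0.10, -0.38, -0.40, -0.31 and -0.36 with Mitsui low and -0.18, 0.06, -0.08, -0.36 and -0.30 with Mitsui high. Again no exposed animal reached the lowest control, and NM-401 high had the lowest mean of the 5 groups. The differences were -0.78 ± 0.09 with NM-401 high (limma adjusted p = 2.33e-07), -0.51 ± 0.09 with NM-401 low, -0.47 ± 0.09 with Mitsui low and -0.33 ± 0.09 with Mitsui high. The second brightest Hspg2 probe gave a much smaller difference, -0.17 ± 0.07 with NM-401 high (adjusted p = 0.0706) and -0.18 ± 0.07 with NM-401 low (adjusted p = 0.087), neither called by limma. It was called with Mitsui low (-0.24 ± 0.07) and Mitsui high (-0.20 ± 0.07), so the probes share the direction in all 4 exposures and differ in size.

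The type IV collagen chains split by pair. Col4a3 and Col4a4 encode chains of the network found under alveolar and glomerular epithelium, and Col4a1 and Col4a2 those of nearly all basement membranes. Col4a3 read 4.07, 3.97, 4.23, 4.57 and 4.38 in the controls and 4.12, 3.63, 2.92, 3.69 and 4.17 with NM-401 high, where animal 3 was lowest and 2 animals lay inside the control range. The difference of -0.54 ± 0.18 (limma adjusted p = 0.0217) was lost without NM-401 high animal 3 or control animal 4 (-0.45 to -0.34). This difference was also not called with a background offset of 10 or with the scanner's own ratios. With NM-401 low it was -0.44 ± 0.18 and not called. Col4a4 changed by -0.31 ± 0.12 (adjusted p = 0.0426), a call of limma's that was lost without NM-401 high animal 3, 4 or 5 or control animal 1, 2, 3 or 4 (-0.33 to -0.26). It was also lost with the same 2 alternatives, with no background subtraction, with no filter on dim probes and with trend and robust variance. The other 2 Col4a4 probes fell further, by 0.53 and 0.66. Col4a1 and Col4a2 differed by 0.14 and -0.04 with NM-401 high and were called in none of the exposures.

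Col15a1 encodes a collagen of basement membrane zones whose end fragment is antiangiogenic. Its probe was well above background in 2 of 5 controls and in 4, 5, 4 and 4 animals with low and high NM-401 and low and high Mitsui, so it passed the filter only through the exposed groups and its difference is a description. Its values were 0.38, 0.28, -0.01, 0.26 and 0.26 in the controls and 0.59, 1.00, 0.51, 0.43 and 0.74 with NM-401 high, without overlap. The difference was 0.42 ± 0.11 and ran from 0.33 without NM-401 high animal 2 to 1.52 with the scanner's own ratios. The laminin genes Lama2, Lama3, Lama5 and Lamb3, and Col18a1, the source of endostatin, were called in none of the exposures. Over the 12 genes the median was -0.16, -0.07, -0.04 and -0.10 in the order low and high NM-401, then low and high Mitsui, and it became 0.18 with NM-401 high under median centring, where all features stood at 0.17, and 0.02 with Mitsui low under the scanner's own ratios.

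**Figure D2:**
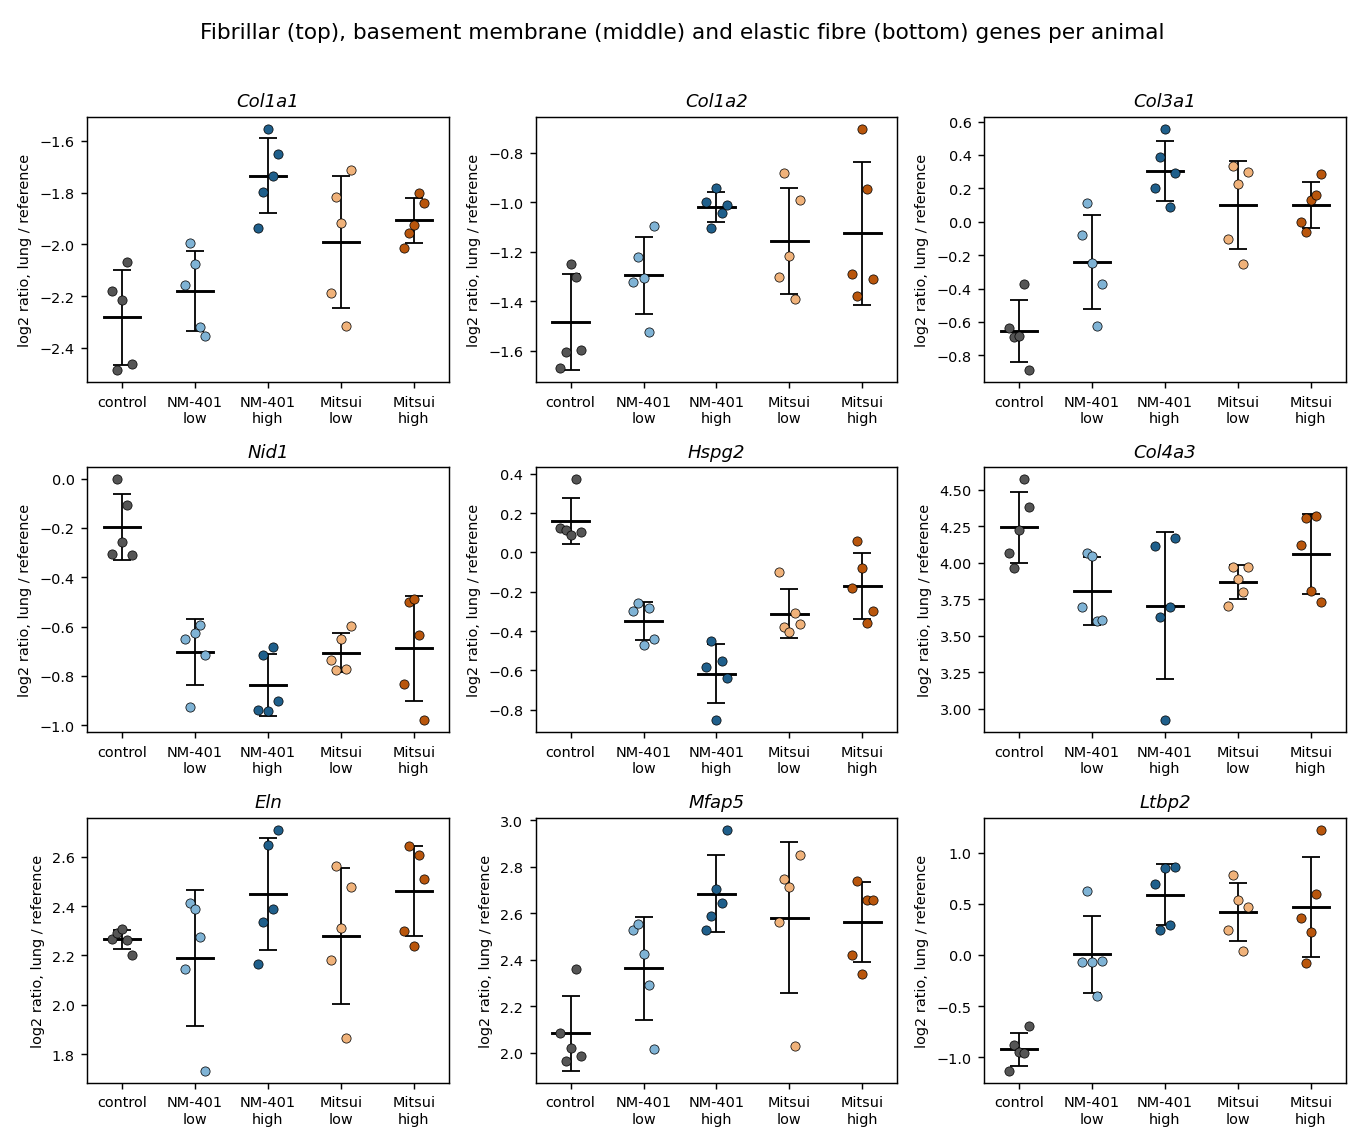
Log2 ratio of lung over reference RNA for each animal (points) in the control and the 4 exposed groups, with group mean and SD (bars, n = 5), for 3 fibrillar, 3 basement membrane and 3 elastic fibre genes; each panel has its own axis. All 20 exposed animals lie below the controls for Nid1 and Hspg2 and above them for Ltbp2, while Eln overlaps in every group.

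The elastic fibre genes did not move as a block. Elastin itself and its fibrillin scaffold were not called, while Ltbp2, Mfap5 and Fbln1 rose in some exposures. Eln read 2.27, 2.29, 2.31, 2.26 and 2.20 in the controls, the narrowest spread of any group, and 2.17, 2.33, 2.65, 2.39 and 2.71 with NM-401 high. NM-401 low, NM-401 high and Mitsui low reached on both sides of the controls, and Mitsui high lay among or above them. The differences were -0.08 ± 0.13, 0.18 ± 0.13, 0.01 ± 0.13 and 0.19 ± 0.13 in the order low and high NM-401, then low and high Mitsui, none called by limma (adjusted p = 0.31 with NM-401 high).

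Ltbp2 had the largest rise of the 48 members in each of the 4 exposures. It encodes a microfibril protein related to the carriers of latent TGF-beta, though it does not itself bind that factor. The controls read -1.13, -0.88, -0.95, -0.96 and -0.69 and the NM-401 high animals 0.69, 0.25, 0.85, 0.29 and 0.86. The values were -0.07, 0.63, -0.06, -0.41 and -0.06 with NM-401 low, 0.24, 0.79, 0.54, 0.04 and 0.47 with Mitsui low and 0.36, -0.08, 0.22, 0.60 and 1.22 with Mitsui high. Every exposed animal lay above every control. Ltbp2 was higher by 1.51 ± 0.20 with NM-401 high, or 2.85-fold (95% interval 2.14 to 3.8) (limma adjusted p = 2.79e-06). The other differences were 0.93 ± 0.20 with NM-401 low, 1.34 ± 0.20 with Mitsui low and 1.39 ± 0.20 with Mitsui high. Its relative Ltbp1, which does tether latent TGF-beta to the matrix, went down. Ltbp1 read -0.20, -0.45, -0.45, -0.24 and -0.45 in the controls and -0.74, -0.64, -0.65, -0.47 and -0.72 with NM-401 high, a difference of -0.29 ± 0.09 (adjusted p = 0.0123 by limma) without overlap. With Mitsui high it changed by -0.26 ± 0.09, which was lost without Mitsui high animal 1, 4 or 5 or control animal 1 or 4 (-0.26 to -0.20).

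Mfap5 encodes a small glycoprotein of fibrillin microfibrils. It read 2.09, 1.97, 2.02, 2.36 and 1.99 in the controls, 2.53, 2.59, 2.70, 2.64 and 2.96 with NM-401 high and 2.42, 2.74, 2.34, 2.66 and 2.66 with Mitsui high. With NM-401 high all animals lay above the controls, whereas with Mitsui high 1 animal fell just below the highest control. Mfap5 was higher by 0.60 ± 0.13 with NM-401 high (limma adjusted p = 0.000876), 0.50 ± 0.13 with Mitsui low and 0.48 ± 0.13 with Mitsui high. With NM-401 low the difference of 0.28 ± 0.13 was not called.

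Fbln1, fibulin 1, which binds both elastic fibres and basement membranes, was called at the low doses only. It read 1.72, 1.46, 1.76, 2.12 and 1.73 in the controls, 2.39, 2.27, 2.45, 2.44 and 2.12 with NM-401 low and 2.32, 2.09, 2.10, 2.09 and 2.36 with Mitsui low. With NM-401 high the values were 1.58, 1.95, 1.58, 2.33 and 2.10, within or above the control range. The differences were 0.58 ± 0.13 with NM-401 low (limma adjusted p = 0.00463) and 0.44 ± 0.13 with Mitsui low, against 0.15 ± 0.13 and 0.22 ± 0.13 at the high doses. The difference between high and low dose was not called for either material. The Mitsui low call was lost without Mitsui low animal 1 or 5 or control animal 2 (0.36 to 0.40), and with the second brightest probe neither low dose was called (0.39 ± 0.15 and 0.15 ± 0.15). Fbn1, Fbln2, Fbln5, Mfap4 and Emilin1 were called in none of the exposures. The class median was 0.03, 0.16, 0.14 and 0.12 in the order low and high NM-401, then low and high Mitsui, and it was below 0 under median centring in all but NM-401 high (-0.12, -0.04 and -0.03) and with the scanner's own ratios in NM-401 low (-0.02).

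The difference between 2 class means in 1 animal is less open to the scaling, because a constant added to an array cancels in it. For each animal the mean change of the 12 basement membrane genes from their control means was subtracted from that of the 5 fibrillar genes. The result lay between -0.11 and 0.08 in the controls and between 0.47 and 0.81 with NM-401 high. It ranged from 0.04 to 0.54 with NM-401 low, from 0.23 to 0.54 with Mitsui low and from 0.20 to 0.60 with Mitsui high. All animals of 3 exposed groups thus lay above all controls, and in NM-401 low 1 animal, at 0.04, lay among them. Under median centring the ranges were -0.15 to 0.11 in the controls, 0.34 to 0.83 with NM-401 high, 0.03 to 0.48 with NM-401 low, 0.21 to 0.45 with Mitsui low and 0.24 to 0.59 with Mitsui high, the same pattern. These are descriptions of chosen genes and carry no test.

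Fibrillar against elastic fibre genes gave a smaller contrast. The same subtraction ranged from -0.08 to 0.11 in the controls, from 0.11 to 0.34 with NM-401 high, and over the control range in the other groups (-0.17 to 0.13 with NM-401 low, -0.12 to 0.14 with Mitsui low and -0.05 to 0.24 with Mitsui high). Elastic fibre minus basement membrane gave -0.04 to 0.11 in the controls and 0.21 to 0.48 over the 4 exposed groups, where no animal overlapped with the controls. By these means the class order was fibrillar, elastic fibre, basement membrane with NM-401 high. The first 2 were barely apart there (lowest animal 0.1105, highest control 0.105) and not separable beyond their spread in the other exposures. A few genes weigh heavily in the means, with NM-401 high Col3a1 (0.96), Ltbp2 (1.51), Nid1 (-0.64) and Hspg2 (-0.78). The class medians with NM-401 high were 0.47, 0.16 and -0.07 in the same order. Whether the order holds without those genes was not tested.

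**Figure D3:**
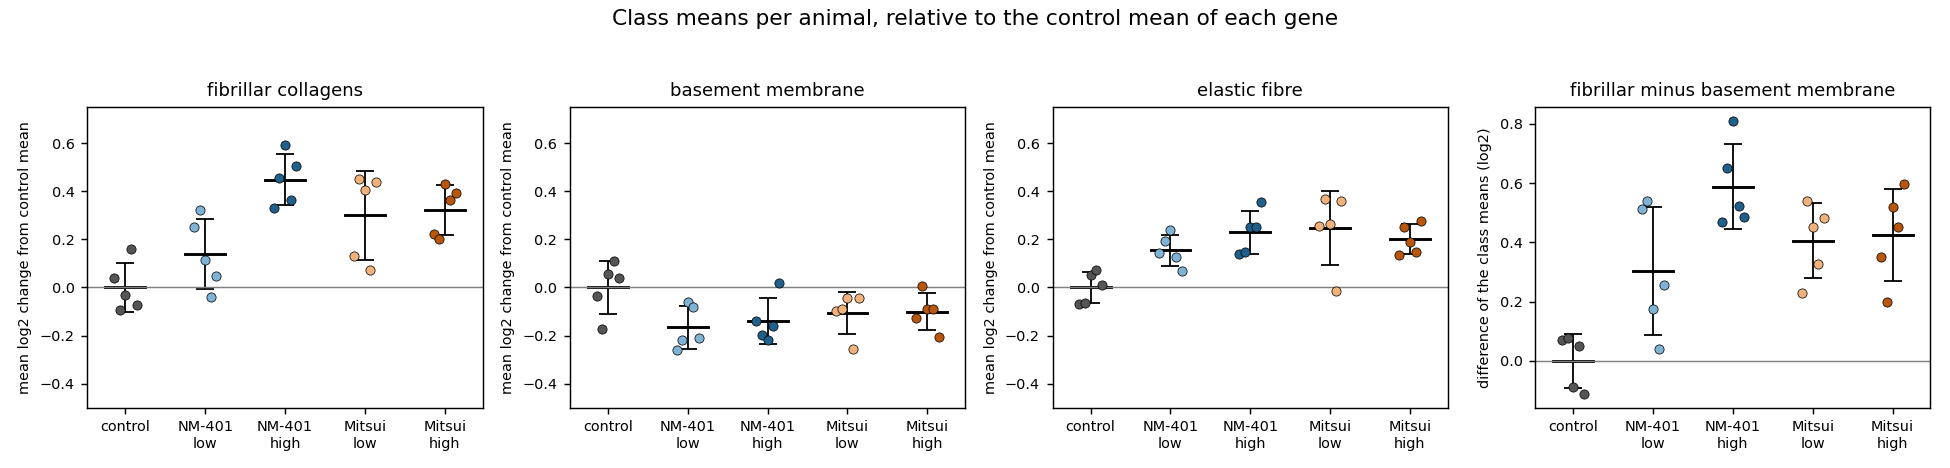
Mean log2 change from the control mean over the 5 fibrillar, 12 basement membrane and 10 elastic fibre genes in each animal (points; bars are group mean and SD, n = 5 animals), and the fibrillar minus basement membrane difference in the last panel. The difference is 0.47 to 0.81 in the NM-401 high animals and -0.11 to 0.08 in the controls.

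Type VI collagen forms beaded filaments around cells and at the edge of the basement membrane, from 3 chains. Of these Col6a1 was called in 3 exposures and Col6a2 and Col6a3 in none. Col6a1 read -0.64, -0.82, -0.64, -0.84 and -0.85 in the controls and -0.23, -0.64, -0.54, -0.45 and -0.39 with NM-401 high, which just overlap. It was higher by 0.31 ± 0.10 with NM-401 high (limma adjusted p = 0.0166), 0.29 ± 0.10 with Mitsui low and 0.28 ± 0.10 with Mitsui high. With NM-401 low its values, -0.53, -0.49, -0.56, -0.59 and -0.38, all lay above the controls, and the difference of 0.25 ± 0.10 was not called (adjusted p = 0.0876 by limma). The 3 calls were lost without NM-401 high animal 1 (0.26) for NM-401 high, Mitsui low animal 2 or 5 or control animal 2, 4 or 5 (0.22 to 0.27) for Mitsui low and Mitsui high animal 3 or 4 or control animal 2, 4 or 5 (0.20 to 0.27) for Mitsui high. Col14a1, a fibril-associated collagen, read 2.90, 2.90, 2.83, 3.17 and 3.05 in the controls and 3.30, 3.36, 3.42, 3.54 and 3.16 with Mitsui high, its 1 call (0.38 ± 0.14, limma adjusted p = 0.0456). Its second brightest probe differed by 0.04 ± 0.10, and the call was lost without Mitsui high animal 1, 2, 3 or 4 or Mitsui low animal 2, 3 or 4 or NM-401 low animal 1 or 4 or control animal 1, 2, 3 or 5 (0.34 to 0.40).

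The proteoglycans held the largest fall of the 48 members in each exposure, that of Ogn. Ogn encodes osteoglycin, a small leucine-rich proteoglycan made by fibroblasts and vessel walls. Its values were 1.56, 1.37, 1.63, 1.45 and 1.87 in the controls and -0.17, 0.24, -0.19, 0.55 and -0.43 with NM-401 high. They were 0.95, 0.31, 1.17, 1.48 and 0.65 with NM-401 low, 0.81, 0.84, 0.54, 0.22 and 0.35 with Mitsui low and 0.31, 0.95, 0.35, 0.14 and -0.09 with Mitsui high. All animals of the last 2 groups and of NM-401 high lay below the controls, and NM-401 low animal 4 lay inside the control range. Ogn changed by -1.58 ± 0.21 with NM-401 high, a ratio of 0.335 (95% interval 0.249 to 0.452) (limma adjusted p = 2.62e-06), by -1.02 ± 0.21 with Mitsui low and by -1.24 ± 0.21 with Mitsui high. The NM-401 low difference of -0.66 ± 0.21 was lost without NM-401 low animal 2 or 5 or control animal 3 or 5 (-0.65 to -0.51).

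Vcan encodes versican, a large chondroitin sulphate proteoglycan of provisional matrix. It read -2.74, -2.68, -3.04, -2.45 and -2.87 in the controls and -2.36, -1.85, -1.56, -1.91 and -1.94 with NM-401 high, with no overlap. With Mitsui low it read -2.18, -2.61, -1.92, -2.29 and -1.93 and with Mitsui high -2.09, -2.28, -2.61, -2.40 and -1.92, where the lowest animals entered the control range. Vcan was higher by 0.83 ± 0.15, or 1.78-fold (95% interval 1.44 to 2.19), with NM-401 high (limma adjusted p = 9.29e-05). It was higher by 0.57 ± 0.15 with Mitsui low and 0.50 ± 0.15 with Mitsui high, the latter lost without Mitsui high animal 5 (0.41). The second brightest probe was called in the same 3 exposures with a smaller size (0.42 ± 0.09, 0.30 ± 0.09 and 0.25 ± 0.09).

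Fmod, fibromodulin, which binds collagen fibrils, read -1.04, -1.03, -1.62, -1.69 and -1.10 in the controls and -0.87, -0.97, -1.10, -0.79 and -0.42 with NM-401 high. The groups overlapped, and the difference of 0.47 ± 0.15 (limma adjusted p = 0.02) was lost without NM-401 high animal 5 or control animal 3 or 4 (0.36 to 0.39). The median over the 6 proteoglycans was -0.12, 0.08, -0.06 and -0.16 in the order low and high NM-401, then low and high Mitsui. Decorin (Dcn), lumican (Lum) and biglycan (Bgn) were called in none of the exposures. NM-401 high animal 2 stood apart in 2 of them, at 1.74 for Dcn where the other 4 read -0.39 to 0.16, and at 2.51 for Lum where the other 4 read 0.67 to 1.28.

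**Figure D4:**
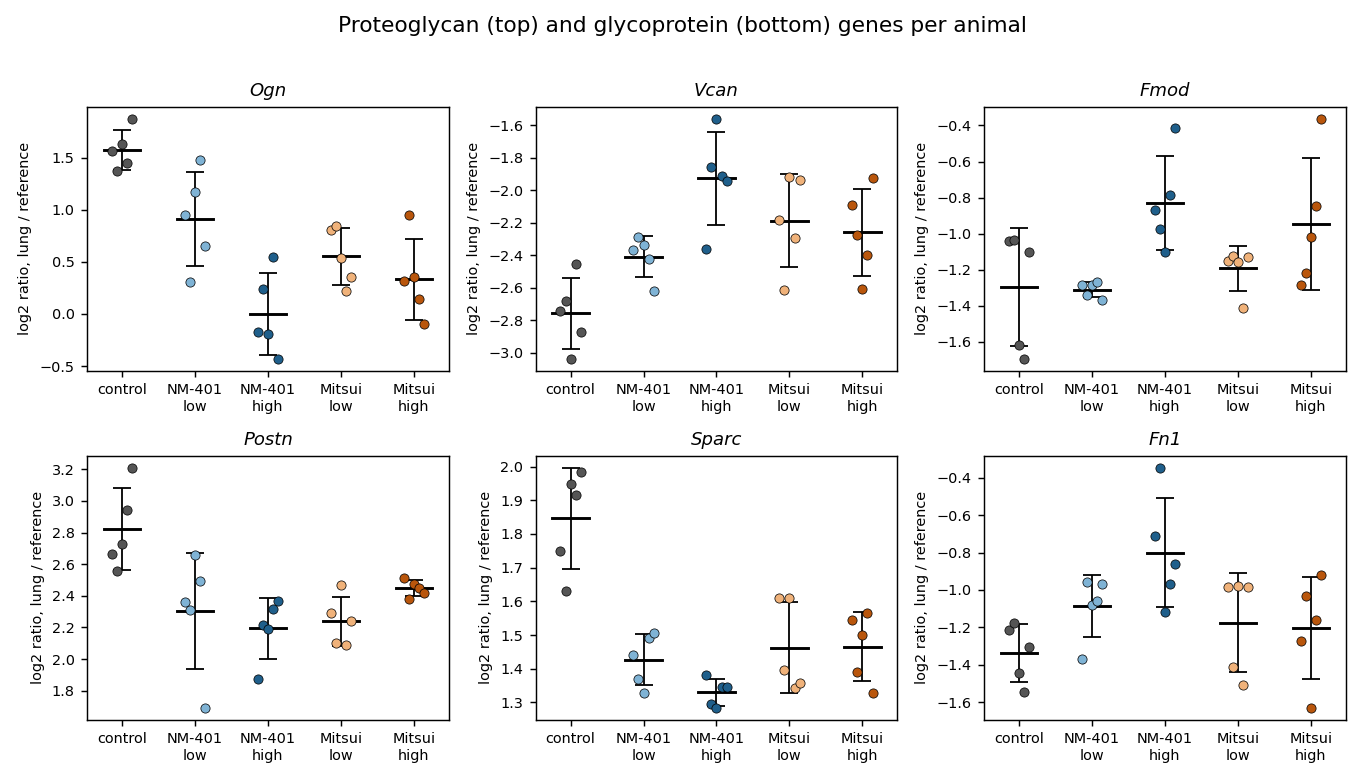
Log2 ratio of lung over reference RNA for each animal (points) with group mean and SD (bars, n = 5) for 3 proteoglycan and 3 glycoprotein genes; each panel has its own axis. Ogn, Postn and Sparc lie lower with NM-401 high than in every control, and Vcan and Fn1 higher.

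The glycoproteins split too. Fibronectin and tenascin C rose with NM-401 high, and Mgp in all 4 exposures, while periostin, tenascin X and Sparc fell. Fn1, fibronectin, is the adhesive protein of provisional matrix. It read -1.21, -1.18, -1.45, -1.55 and -1.31 in the controls and -0.71, -0.35, -1.12, -0.97 and -0.86 with NM-401 high, wholly above the controls. It was higher by 0.54 ± 0.14, or 1.45-fold (95% interval 1.18 to 1.78) (limma adjusted p = 0.00476). The differences were 0.25 ± 0.14, 0.16 ± 0.14 and 0.14 ± 0.14 in NM-401 low, Mitsui low and Mitsui high, none of them called. Tnc, tenascin C, which appears at sites of tissue remodelling, was higher by 0.29 ± 0.11 with NM-401 high, a call lost without NM-401 high animal 1, 2, 3 or 5 or control animal 2 or 5 (0.19 to 0.30).

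Sparc encodes a collagen-binding protein that takes part in fibril assembly. It read 1.75, 1.63, 1.95, 1.92 and 1.98 in the controls and 1.38, 1.29, 1.28, 1.35 and 1.35 with NM-401 high. The values were 1.44, 1.37, 1.33, 1.49 and 1.50 with NM-401 low, 1.61, 1.40, 1.61, 1.34 and 1.36 with Mitsui low and 1.55, 1.39, 1.50, 1.56 and 1.33 with Mitsui high. All 20 exposed animals lay below the controls. Sparc changed by -0.52 ± 0.07 with NM-401 high (limma adjusted p = 5.99e-06), and by -0.42, -0.38 and -0.38 in NM-401 low, Mitsui low and Mitsui high. Its second brightest probe had the same sign each time but was not called (-0.34 ± 0.18 with NM-401 high, limma adjusted p = 0.152).

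Postn encodes periostin, a matricellular protein that binds collagen I and fibronectin and is often high in scarring tissue. It was lower in 3 of the 4 exposures. The values were 2.67, 2.56, 2.73, 2.94 and 3.21 in the controls, 1.87, 2.22, 2.19, 2.32 and 2.37 with NM-401 high and 2.29, 2.10, 2.47, 2.09 and 2.24 with Mitsui low, both groups below all controls. Postn changed by -0.63 ± 0.14 with NM-401 high (limma adjusted p = 0.000988), -0.52 ± 0.14 with NM-401 low and -0.58 ± 0.14 with Mitsui low. With Mitsui high the values, 2.51, 2.38, 2.48, 2.45 and 2.42, also lay below all controls, but the difference of -0.37 ± 0.14 was not called (limma adjusted p = 0.0536). Tnxb, tenascin X, which spaces collagen fibrils, changed by -0.49 ± 0.16 with NM-401 high, a call lost without NM-401 high animal 3 or 5 or control animal 5 (-0.45 to -0.41). Mgp was higher by 0.38 to 0.45 over the 4 exposures. The calls for NM-401 low and Mitsui high were lost without NM-401 low animal 1, 2, 3 or 4 or control animal 2 or 5 (0.24 to 0.40) and Mitsui high animal 5 or control animal 2 (0.25 to 0.31). The control animal 2, at 5.36, read lower than the other controls at 6.02 to 6.19. Thbs1 and Thbs2, the thrombospondins, were called in none. The median over the 8 glycoproteins was 0.01, 0.27, 0.08 and 0.05 in the order low and high NM-401, then low and high Mitsui. All but that of NM-401 high were below 0 under median centring (-0.10, -0.15 and -0.11). That of NM-401 low was also below 0 with the authors' matrix (-0.04), no background subtraction (-0.011) and array weights (-0.016). The same held for the mean of kept probes (-0.001) and the second brightest probes (-0.016), so its sign is not settled.

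The cross-linking enzymes Lox, Loxl1 and Loxl2, which join collagen and elastin chains, were not called in any exposure by limma. At an unadjusted p under 0.05, 1 of their 12 tests passed, with NM-401 low, where 6798 of the 22950 features did. With NM-401 high the differences were -0.15 ± 0.09 for Lox, -0.20 ± 0.14 for Loxl1 and -0.09 ± 0.11 for Loxl2. The 95% intervals reached from -0.34 to 0.04, from -0.48 to 0.08 and from -0.32 to 0.13.

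Few members were called between doses, and few of all features. Between NM-401 high and low 2 were higher, Col1a1 and Col3a1, and 1 lower, Ogn, where 3.84% of all features were called, 2.69% higher and 1.15% lower. Col1a1 was higher by 0.44 ± 0.11 (limma adjusted p = 0.0223) and Col3a1 by 0.55 ± 0.13 (adjusted p = 0.0211), and Ogn changed by -0.91 ± 0.21 (adjusted p = 0.0175). These calls were lost without NM-401 high animal 3 or 5 or NM-401 low animal 1 or 4 (0.40 to 0.45) for Col1a1, NM-401 high animal 3 or 5 or NM-401 low animal 4 (0.45 to 0.55) for Col3a1 and NM-401 high animal 3 or 5 or NM-401 low animal 1 or 4 (-0.90 to -0.77) for Ogn. The count of members called ranged from 0 without NM-401 low animal 4 to 5 without NM-401 low animal 2, and it was 6 with slide as a block. Between these NM-401 doses 13 of the 48 members and 4200 of the 22950 features had an unadjusted p under 0.05. Between Mitsui high and low 0 members were called by limma, as were 0% of all features. An unadjusted p under 0.05 was reached there by 1 member and by 1243 of the 22950 features.

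The materials differed in 1 member. At the high dose Hspg2 was lower with NM-401 than with Mitsui, a difference of -0.44 ± 0.09 (limma adjusted p = 0.0186), where 0.793% of all features were called, 0.331% as lower with NM-401. The second brightest Hspg2 probe gave 0.03 in this comparison, median centring gave 0.07, and the call was lost without Mitsui high animal 2 or 3 or NM-401 high animal 3 or 5 (-0.44 to -0.39). At the low dose 0 members and 0% of features were called. An unadjusted p under 0.05 was reached by 1 member and by 1287 of the 22950 features. The interaction of material and dose was called in 0 members by limma, against 0.0305% of features. Unadjusted, 6 of the 48 members had a p under 0.05, near the share of all features (2923 of 22950).

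Genes around the members were read from the same fit, in lists chosen with earlier results of these data known. Counts in these lists and in the cell markers stand beside the shares of all features called. Those were 18.4% higher and 16.4% lower with NM-401 high, and 8.95% and 8% with NM-401 low. They were 10.6% and 10.4% with Mitsui low and 12.7% and 11% with Mitsui high. Enzymes and chaperones that make collagen moved both ways, with 7 of 23 tested higher and 7 lower with NM-401 high, a median of -0.03. Those that changed most were Pcolce2, a helper of procollagen processing, which changed by -1.42 ± 0.19, the lysyl hydroxylase gene Plod2, which changed by -1.25 ± 0.15, and the collagen galactosyltransferase gene Colgalt2, which changed by -1.22 ± 0.16. Among the 7 that rose were Bmp1 (0.93), P4ha3 (0.86) and the other lysyl hydroxylase genes Plod3 (0.53) and Plod1 (0.51). In NM-401 low 2 rose and 6 fell, in Mitsui low 4 and 4, and in Mitsui high 4 and 5.

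Other chains of collagen and laminin fell more often than they rose, 10 against 4 of 21 with NM-401 high, with a median of -0.26 (all features -0.00). The 4 that rose included Col7a1, the anchoring fibril collagen, by 1.45 ± 0.18, and the type V chain gene Col5a3, by 1.01 ± 0.14. The laminin chain genes Lama1 and Lamc3 rose by 0.98 ± 0.20 and 0.61. Among the 10 that fell were the laminin chain genes Lama4 (-0.50), Lamb1 (-0.39), Lamb2 (-0.47) and Lamc1 (-0.44). The type IV chain genes Col4a5 (-0.53) and Col4a6 (-0.61) fell too. With Mitsui high 3 rose and 8 fell, with Mitsui low 3 and 8, and with NM-401 low 2 and 4. Of 12 other elastic fibre genes 4 rose and 2 fell with NM-401 high, where Emilin2 rose by 1.70 ± 0.15, Fbln7 rose by 0.72 ± 0.13 and Ltbp4 changed by -1.19 ± 0.19. The Ltbp4 protein binds latent TGF-beta and is needed for elastic fibre assembly. Of 19 matrix receptors 2 rose and 6 fell with NM-401 high, where 18.4% of all features were called higher and 16.4% lower. The hyaluronan receptor gene Cd44 was higher by 0.98 ± 0.11, and the integrin genes Itga8 and Itga1 changed by -1.25 ± 0.18 and -1.08 ± 0.13.

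Markers of the cells that make or line the matrix mostly fell or were not called, whereas the members moved in both directions. The share of all features called with NM-401 high was 18.4% higher and 16.4% lower. With NM-401 high 8 of 12 fibroblast markers fell and 0 rose, among them Tcf21 (-1.42 ± 0.15) and Pdgfra (-1.38 ± 0.13), and each animal's mean over the list was -0.66 to -0.30 against -0.04 to 0.06 in the controls. In NM-401 low 6 fell and 1 rose, in Mitsui low 8 fell, and in Mitsui high 7 fell and 1 rose, with animal means of -0.41 to -0.11, -0.45 to -0.29 and -0.47 to -0.23. Of 9 markers of alveolar type 1 cells 7 were lower and 1 higher (animal means -0.70 to -0.36, controls -0.21 to 0.16), and of 10 endothelial markers 7 were lower (-0.84 to -0.49, controls -0.14 to 0.15). Mesothelial markers fell in 5 of 8 with means that overlapped (-0.92 to -0.12, controls -0.45 to 0.38), and smooth muscle and myofibroblast markers in 2 of 9 (-0.65 to -0.02, controls -0.41 to 0.32). Macrophage markers rose in 7 of 8 (2.87 to 3.36, controls -0.20 to 0.13). One of them, Mmp12, was above background in 1 of 5 controls, and without it 6 of 7 were higher (2.75 to 3.26, controls -0.23 to 0.11). With NM-401 low, Mitsui low and Mitsui high, 5, 6 and 6 alveolar type 1 markers and 3, 3 and 4 endothelial markers were lower, and 7, 7 and 7 macrophage markers higher. The part of these cell types in the matrix values was not tested.

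Cartilage of the airways and heart tissue can add matrix transcripts to a lung sample. The cartilage genes Col2a1, Col9a3, Matn1 and Matn3 were above background in 0 of 25 animals. Of the 4 cartilage genes tested 1 was called with NM-401 high, Comp (0.76 ± 0.13), which was above background in 2 of 5 controls and passed the filter only through exposed groups, as did Col9a2. Without these 2, 0 of 2 cartilage genes were called with NM-401 high, and animal means of 0.12 to 0.50 overlapped with -0.18 to 0.32 in the controls. With Mitsui high 2 of 4 were called higher, and 1 of 2 without Col9a2 and Comp (means 0.15 to 0.75). With Mitsui low 1 of 4 was called higher, and 0 of 2 without them (0.17 to 0.65). None was called with NM-401 low. Over all 4 genes the controls had means of -0.08 to 0.11. NM-401 high (0.28 to 0.43), Mitsui low (0.20 to 0.41) and Mitsui high (0.32 to 0.62) lay above them, and NM-401 low (-0.14 to 0.49) overlapped. Cardiac muscle markers varied widely within groups, from -1.13 to 0.82 in the controls and -1.71 to 0.13 with NM-401 high, and 1 of 9 was called. Their part in the matrix values was not tested.

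The arrays lay on 4 slides, and each group was spread over them, except that NM-401 high had none on slide 2 and Mitsui low had on slide 4 only a repeat array. Within slides, with 1 or 2 animals a group, the called members kept their sign in every comparison that could be made, apart from 2 with Mitsui high, Ltbp1 on slide 3 (0.04) and Col1a2 on slide 4 (-0.08). Some were near 0, such as Fmod on slide 1 and Tnc on slide 4 with NM-401 high (0.03 each). The members were called in these same animals, so most signs were bound to agree, and slide effects cannot be judged from this. With slide as a block 14 members were called with NM-401 low, 7 higher and 7 lower, against 9 without it.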

How the data were processed

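Lung RNA of 25 animals was hybridised on 26 two-colour Agilent arrays with a common reference. Per the file headers, the deposited scanner files were made with Agilent Feature Extraction 11.0.1.1 and hold spot intensities, flags and a log10 ratio of Cy5 over Cy3. The authors also deposited a matrix of ratios, taken here as log2, whose base and method are not given in the sources used here: its columns had medians of -0.04 to -0.018 and ran in the direction of the scanner ratios, with slopes of 0.53 to 0.59, or 0.67 to 0.73 over probes above background in all animals. It served as an alternative only.

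Median spot intensities were background-corrected with median backgrounds (normexp, offset 50) and loess-normalised within arrays. They were fitted over all 5 groups in limma 3.58.1 (R 4.3.3), with 20 residual and 3.76 prior degrees of freedom. Kept were 30466 of 55681 probes, those that 1 group or more had above background in Cy5 in 4 animals or more, and the brightest kept probe stood for each of 22950 features, 14838 of them with a gene symbol. Correction was by Benjamini-Hochberg over all features at 0.05. The number of arrays limits the precision.

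Members and lists were chosen with earlier results of these data known. Per-animal values are given for the 3 most changed called members of each class, 1 more in classes of over 8, and for Col1a1, Col4a3 and Eln. Values of other members serve single statements and were chosen after they were seen. From other lists up to 3 called genes with the largest change with NM-401 high are named. Further genes named for the collagen enzymes and the other chains were chosen after they were seen. Alternatives covered background correction, normalisation, ratio source, filter, probe choice, slide, replicate number, variance model, array weights and leaving out each animal. Leaving out marker genes above background in fewer than 4 controls was chosen after seeing the data.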

Additional observations from a re-analysis of the deposited data

Results flagged for a closer look

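In 14 of 240 member and group combinations 1 animal lay far from the other 4 (gap over range above 0.71), where chance gives about 1 in 20. Among collagens, Col6a2 read -1.13 in Mitsui low animal 4 (others -0.55 to -0.45), Col6a3 0.16 in Mitsui high animal 3 (-0.25 to -0.13), Col14a1 3.46 in Mitsui low animal 5 (3.04 to 3.15), Col4a4 3.45 in Mitsui high animal 5 (3.76 to 3.88) and Col18a1 -0.27 in NM-401 high animal 5 (-0.48 to -0.42). Hspg2 read 0.37 in control animal 4 (0.09 to 0.12) and Fbln1 2.36 in Mitsui high animal 2 (1.80 to 1.93).

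Among proteoglycans, Lum read -0.0215 in Mitsui low animal 2 (0.93 to 1.28), Dcn 1.74 in NM-401 high animal 2 (-0.39 to 0.16), Bgn -1.32 in NM-401 low animal 5 (-0.92 to -0.82) and Fmod -1.41 in Mitsui low animal 4 (-1.15 to -1.12). Among glycoproteins, Tnc read -0.38 in Mitsui high animal 5 (-0.17 to -0.10), and Mgp 5.36 in control animal 2 (6.02 to 6.19) and 6.64 in Mitsui high animal 5 (6.17 to 6.30).

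The materials differed at the high dose for Hspg2, by -0.44 between NM-401 and Mitsui in limma's test.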

How the results depend on the processing

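Median centring moved the counts most. The called features became 62, 1064, 74 and 121 and the called members 0, 2, 0 and 0 with low and high NM-401 and then low and high Mitsui, and NM-401 high against low gave 8 features and 0 members. NM-401 against Mitsui at the high dose gave 0 of each, and the interaction of material and dose 0 features. Hspg2 between the materials at the high dose turned to 0.069 with median centring and to 0.0298 with its second brightest probe, an alternative chosen after seeing the data, under which 5 members were called with NM-401 low and 0 between materials at the high dose. The cause was not tested. For NM-401 high against low, called members were 5 with the scanner's ratios, 6 with the authors' matrix, 6 with slide as a block and 7 with array weights, and called features 1562 with slide and 1713 with array weights. With slide as a block 14 members were called with NM-401 low and 15 features between Mitsui doses. Between materials at the high dose, called features were 104 with offset 10, 39 with the scanner's ratios, 94 with no filter, 510 with slide and 346 with array weights, and the mean of kept probes left 0 members. At the low dose they were 1 with the scanner's ratios and 2 with array weights. For the interaction they were 11 with no background subtraction, 16 with the scanner's ratios, 14 with the authors' matrix, 3 with no filter, 12 with probes above background in all 25 animals, 121 with slide, 4 with trend and robust variance and 118 with array weights. Leaving out 1 animal gave 2923 to 3998, 6943 to 8125, 3999 to 4971 and 4407 to 5648 features and 6 to 11, 17 to 22, 10 to 15 and 11 to 15 members in the 4 exposures. It gave 183 (without NM-401 low animal 4) to 1232 (without NM-401 high animal 2) features and 0 to 5 members between NM-401 doses, and 0 to 3 features and 0 members both between Mitsui doses and between materials at the low dose. It gave 6 (without Mitsui high animal 2) to 913 (without NM-401 high animal 2) features and 0 to 1 members between materials at the high dose, and 1 to 197 features and 0 members for the interaction. The replicate numbers share only a number: same-numbered animals correlated at a mean r of 0.0096 in their deviations, and 5 of 25 animals correlated best with their own number. With the replicate number as a block, 8, 23, 11 and 11 members were called in the 4 exposures, and 1 feature each between Mitsui doses and for the interaction. Probes near background, Col15a1 among them, have the least reliable levels.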
